A study of Mus musculus with 8 samples.

Results

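The TNF superfamily was followed through 10 genes of the mouse lung, the ligands Tnf, Ltb, Tnfsf10 and Tnfsf9 and the receptors Tnfrsf1a, Tnfrsf1b, Ltbr, Fas, Cd40 and Tnfrsf12a. The rule took them by name, as genes of the ligand and receptor families expressed in lung. It used no measured value, but it was written with earlier results of these data known. They are 10 of the 24584 genes in the count table. All 10 passed the filter on low counts and were among the 15706 genes tested. Another 36 genes of the family, 14 ligands and 22 receptors, were read as background.

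The lungs came from male ICR mice of 6 to 8 weeks, an outbred strain, with the genotype given as "widetype" (wild type) for every sample. The 4 mice of the LPS group received lipopolysaccharide of Escherichia coli O111:B4 at 5 mg/kg by intraperitoneal injection. The 4 mice of the LPS + Tan group received the same LPS and, 30 min before it, tangeretin, a citrus flavone, at 50 mg/kg by the same route. Lungs were taken 12 h after LPS. The samples used here hold no untreated mice and no mice given tangeretin alone, so each value below is a level after LPS and cannot show what LPS itself changed.

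Ligands of this family are made as membrane proteins, often in groups of identical or mixed chains, and many are cut from the cell surface to act at a distance. They bind receptors that recruit TRAF adaptors and switch on NF-κB and MAP kinases, and receptors with a death domain, such as Tnfrsf1a and Fas, can also start caspases. In the lung injured by endotoxin, TNF from macrophages is an early signal that drives chemokines, adhesion molecules and neutrophil entry.

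Ltb and Tnf lie side by side on mouse chromosome 17 (build GRCm38), with Ltb at chr17:35194507-35196305 and Tnf at chr17:35199367-35202007, followed by Lta at chr17:35203165-35205578. Tnfsf10 is on chromosome 3, at chr3:27317077-27339665. The RefSeq promoter table of GRCm38.p6 held 8 of the 10 genes, all but Tnfsf9 and Cd40. The 250 bases before the start of these 3 ligands are shown 5′ to 3′ on the strand of the gene, because they set the most abundant ligand of the lung beside the neighbouring pair. The windows are chr17:35202008-35202257 for Tnf (minus strand), chr17:35194257-35194506 for Ltb (plus strand) and chr3:27316827-27317076 for Tnfsf10 (plus strand). Capitals mark a match to a searched motif.
Tnf: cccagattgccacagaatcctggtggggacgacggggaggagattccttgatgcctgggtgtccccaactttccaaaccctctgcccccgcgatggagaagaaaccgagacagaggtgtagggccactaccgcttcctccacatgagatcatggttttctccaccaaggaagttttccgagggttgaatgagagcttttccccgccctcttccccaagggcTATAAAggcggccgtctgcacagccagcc
Ltb: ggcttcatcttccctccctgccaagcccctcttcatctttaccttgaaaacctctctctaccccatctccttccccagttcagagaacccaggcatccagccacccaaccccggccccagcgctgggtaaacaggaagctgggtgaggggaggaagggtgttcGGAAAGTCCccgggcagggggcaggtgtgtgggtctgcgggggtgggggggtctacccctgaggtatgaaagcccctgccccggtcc
Tnfsf10: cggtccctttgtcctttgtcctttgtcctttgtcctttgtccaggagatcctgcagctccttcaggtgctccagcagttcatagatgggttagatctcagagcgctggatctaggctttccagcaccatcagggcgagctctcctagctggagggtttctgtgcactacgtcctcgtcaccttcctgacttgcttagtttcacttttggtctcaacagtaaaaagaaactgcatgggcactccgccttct

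Both strands were searched for the NF-κB letters GGNNTTTCC, the AP-1 letters TGANTCA and the TATA box letters TATAAA. The NF-κB letters were found in Ltb alone, on the minus strand, so that the printed strand reads the reverse complement. They occur in 4.93% of the 32536 promoters of the table. The TATA letters were found in Tnf alone, on the plus strand, and occur in 12.3% of promoters. The AP-1 letters were found in Fas alone and occur in 6.73% of promoters. In Tnfsf10 none of the 3 motifs was found in this window. A match describes these letters and says nothing about binding.

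The 10 genes differed widely in level. Levels are compared between genes in FPKM, reads scaled by gene length and sample total, as the mean ± SD of all 8 samples. Tnfrsf1a, the death-domain receptor that most cells carry, was the most abundant at 132 ± 13.5 FPKM. Tnfsf10, the ligand also known as TRAIL, was next at 104 ± 30.0 FPKM. These were above all the other members in mean level, but the ranges of Tnfsf10 and Fas over the 8 samples overlapped.

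Fas, Tnfrsf12a and Ltbr formed a middle group at 48.1 ± 7.59, 45.6 ± 7.53 and 43.8 ± 3.02 FPKM, and their ranges overlapped. Tnfrsf1b, Ltb and Cd40 followed at 28.6 ± 5.00, 24.5 ± 5.28 and 20.5 ± 3.95 FPKM, and their ranges overlapped too. The highest Tnfrsf1b sample, at 36.6 FPKM, lay below the lowest Ltbr sample, at 39.8 FPKM. Tnf itself was ninth in the order, at 8.73 ± 2.001 FPKM, and every sample was below every Cd40 sample. Tnfsf9 was last at 0.779 ± 0.480 FPKM, with no overlap with Tnf.

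**Figure D1:**
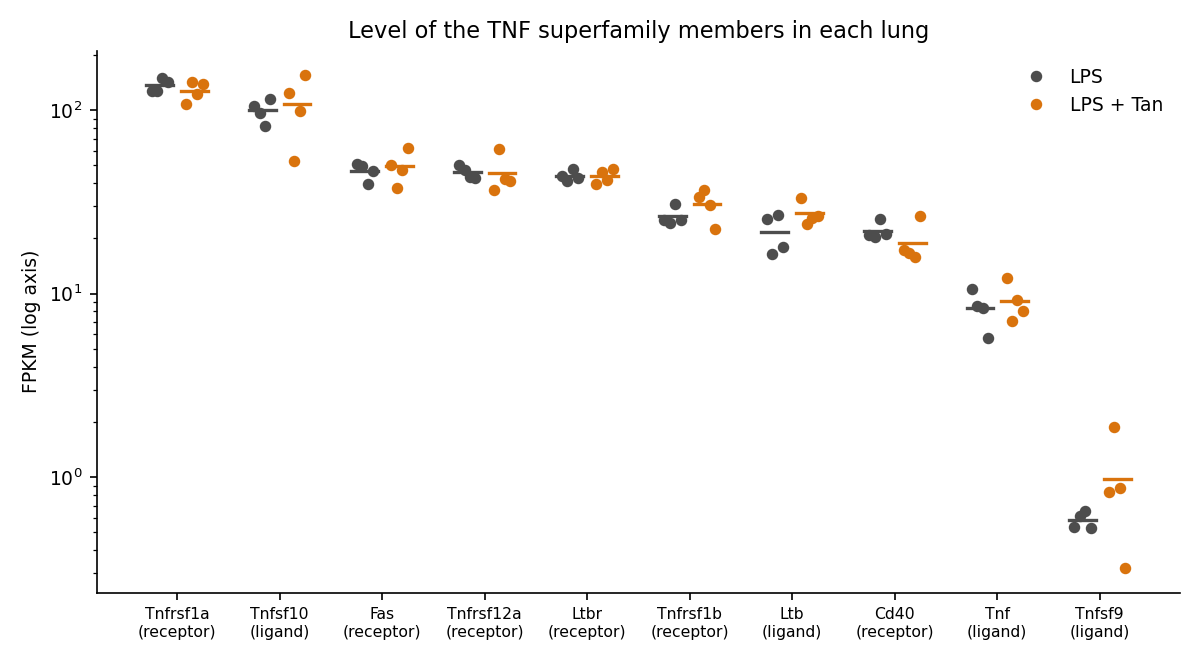
Level of the 10 genes in FPKM (log axis) in each lung. Points are samples, grey for LPS and orange for LPS + Tan, bars are group means (n = 4), and genes are ordered by their mean over all 8 samples. Levels run from 132 FPKM for Tnfrsf1a to 0.779 FPKM for Tnfsf9, and for every gene the points of the groups overlap.

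Whether tangeretin given before LPS changed these genes was asked by comparing LPS + Tan with LPS. None of the 10 differed between the groups beyond the spread between mice. Tested with edgeR's quasi-likelihood test, 6 were higher and 4 lower in the LPS + Tan group, 0 had an unadjusted p below 0.05, and 0 had an adjusted p below 0.05. Of all tested genes 5.12% had an unadjusted p below 0.05, 2.87% being higher and 2.25% lower in LPS + Tan. An adjusted p below 0.05 was reached by 0 of all tested genes with edgeR's quasi-likelihood test, 23 with its likelihood ratio test and 35 with DESeq2, none of them a member. With DESeq2, too, 0 of the 10 had an unadjusted p below 0.05. In 0 of the 10 were the groups apart in CPM, counts scaled by the sample total and the TMM factor, against 2.73% of all tested genes. The median log2 fold change of the 10 was 0.06, and that of all tested genes was 0.0070. The largest was 0.70, for Tnfsf9, so none reached the absolute log2 fold change of 1 that the study set for a DEG. Of the genes with an unadjusted p below 0.05, 451 were higher and 353 lower with TMM scaling, and 653 were higher and 239 lower with total counts only.

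Among the ligands, Tnf, the founding cytokine of the family, showed no difference beyond the spread between mice. In LPS replicates 1 to 4 it stood at 17.7, 14.1, 14.4 and 9.59 CPM, and in LPS + Tan replicates 1 to 4 at 19.7, 11.7, 14.4 and 13.6 CPM. LPS + Tan replicate 1 was the highest and LPS replicate 4 the lowest, and the rest of both groups lay between 11.7 and 17.7 CPM. The means were 13.9 ± 3.34 and 14.9 ± 3.39 CPM (SD, n = 4 each), a log2 fold change of 0.09 (SE 0.20, adjusted p = 0.985, edgeR). As a ratio this is 1.07-fold with a 95% interval from 0.780-fold to 1.46-fold. Without LPS replicate 4 or without LPS + Tan replicate 1 the sign turned, the lowest value being -0.07 on the log2 scale.

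Ltb, the membrane-bound chain that joins Lta to engage Ltbr, had the lowest p of the 10. LPS replicates 1 to 4 had 28.3, 17.9, 30.6 and 19.8 CPM, and LPS + Tan replicates 1 to 4 had 35.2, 26.3, 26.8 and 30.0 CPM. LPS replicates 2 and 4 lay below all other samples, while LPS replicates 1 and 3 lay inside the LPS + Tan range. The means of 24.2 ± 6.26 and 29.6 ± 4.08 CPM gave a log2 fold change of 0.29 (SE 0.18, 95% interval -0.10 to 0.69, unadjusted p of 0.130, adjusted p = 0.928, edgeR). Without LPS replicate 3 it was 0.43, with an unadjusted p of 0.0341 and an adjusted p of 0.999 (edgeR). Without LPS replicate 2 it was 0.17 and without LPS + Tan replicate 1 it was 0.20, with unadjusted p of 0.337 and 0.319 (edgeR). In the fit without LPS replicate 3 Ltb was the only member of the 10 below an unadjusted p of 0.05, where 3.69% of all tested genes were. Its partner chain Lta was hardly detected, with 4, 6, 15 and 7 reads in the LPS lungs and 5, 6, 2 and 7 in the LPS + Tan lungs, and was not tested.

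Tnfsf10, which binds the death receptor Tnfrsf10b and the soluble decoy Tnfrsf11b, was the most variable of the abundant members. The LPS lungs had 527, 475, 423 and 576 CPM, and the LPS + Tan lungs had 597, 261, 467 and 789 CPM. LPS + Tan replicates 2 and 4 were the lowest and highest of all 8 samples, with a 3.02-fold range between them, and the whole LPS group lay inside it. LPS + Tan differed by a log2 fold change of 0.08 (SE 0.27, 95% interval -0.53 to 0.69, adjusted p = 0.989, edgeR), and its sign turned without LPS + Tan replicate 4 and under limma-voom.

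Tnfrsf10b and Tnfrsf11b were much rarer than Tnfsf10, at means of 3.52 and 1.36 FPKM over the 8 lungs. Tnfrsf10b had 10.5 ± 1.96 CPM with LPS and 11.9 ± 1.45 CPM with LPS + Tan, a log2 fold change of 0.17 (SE 0.15). Tnfrsf11b had 4.59 ± 1.43 and 3.43 ± 0.570 CPM, a log2 fold change of -0.42 (SE 0.23, unadjusted p of 0.0924, adjusted p = 0.924, edgeR). In both the groups overlapped. LPS replicate 3 stood at 6.72 CPM of Tnfrsf11b, above the other LPS lungs at 3.61 to 4.10 CPM, and without it the log2 fold change was -0.18 (unadjusted p of 0.358, edgeR).

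Tnfsf9, which costimulates T cells through Tnfrsf9, was counted with few reads. LPS replicates 1 to 4 had 32, 36, 39 and 31 reads, and LPS + Tan replicates 1 to 4 had 49, 111, 51 and 19. In the LPS + Tan group 3 lungs were above every LPS lung and replicate 4 was below every LPS lung. Between the groups the log2 fold change was 0.70 (SE 0.44, 95% interval -0.29 to 1.68, unadjusted p of 0.148, adjusted p = 0.928, edgeR). Without LPS + Tan replicate 2, the lung with 111 reads, it was 0.14 (unadjusted p of 0.696, edgeR).

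The receptor Tnfrsf9 had 9.51, 10.9, 14.5 and 10.4 CPM in the LPS lungs and 4.33, 15.6, 6.49 and 5.54 CPM in the LPS + Tan lungs. LPS + Tan replicate 2, the lung with the most Tnfsf9, was also the highest in Tnfrsf9, and the other 3 lungs of its group were below all LPS lungs. The log2 fold change was -0.51 (SE 0.35, unadjusted p of 0.184, adjusted p = 0.933, edgeR). Without LPS + Tan replicate 2 it was -1.05, with an unadjusted p of 0.000362 and an adjusted p of 0.196 (edgeR). It was -0.30 without LPS + Tan replicate 1, with an unadjusted p of 0.390 (edgeR).

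Among the receptors, Tnfrsf1a and Tnfrsf1b, the receptors of Tnf, leaned in opposite directions without passing the test. Tnfrsf1a stood at 279, 272, 338 and 311 CPM in the LPS lungs and at 228, 304, 250 and 307 CPM in the LPS + Tan lungs. LPS + Tan replicates 1 and 3 lay below every LPS lung, and the other two lay inside the LPS range. This gave a log2 fold change of -0.14 (SE 0.12, 95% interval -0.41 to 0.13, adjusted p = 0.950, edgeR), which was -0.07 without LPS + Tan replicate 1 and -0.08 without LPS replicate 3.

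Tnfrsf1b, the receptor without a death domain found mainly on immune and endothelial cells, stood at 127, 119, 158 and 126 CPM with LPS and at 162, 179.6, 141 and 114 CPM with LPS + Tan. LPS + Tan replicates 1 and 2 were the highest of the 8 samples and replicate 4 was the lowest. For Tnfrsf1b the log2 fold change was 0.17 (SE 0.14, 95% interval -0.15 to 0.49, adjusted p = 0.947, edgeR).

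The balance of these receptors within each lung is given by the ratio of their FPKM, which draws on the values just described. Tnfrsf1b to Tnfrsf1a was 0.199, 0.192, 0.204 and 0.177 in the LPS lungs and 0.311, 0.258, 0.248 and 0.162 in the LPS + Tan lungs. Replicates 1 to 3 of LPS + Tan were above every LPS lung, and replicate 4 was below all of them. The log2 ratio was higher by 0.31 in LPS + Tan, with an exact two-sided permutation p of 0.171 (n = 4 each, adjusted p = 0.400 over the 4 ratios tested). With 70 arrangements the smallest p this test can give is 0.0286. With each lung left out in turn the difference ran from 0.18, without LPS + Tan replicate 1, to 0.49, without LPS + Tan replicate 4. In the latter case the exact permutation p was 0.0286 (not adjusted), and with any other lung left out it was 0.229 to 0.371.

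The ligand to receptor ratios were no clearer. Tnf to Tnfrsf1a was 0.0614 ± 0.0180 with LPS and 0.0740 ± 0.0278 with LPS + Tan (exact permutation p = 0.486, n = 4 each, adjusted p = 0.648). Tnf to Tnfrsf1b was 0.317 ± 0.0841 and 0.304 ± 0.0775 (exact permutation p = 0.800, n = 4 each, adjusted p = 0.800). Ltb to Ltbr was 0.491 ± 0.0956 and 0.633 ± 0.138 (exact permutation p = 0.200, n = 4 each, adjusted p = 0.400). In all 3 ratios the groups overlapped.

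Ltbr, the lymphotoxin receptor of stromal and epithelial cells, was the steadiest member. It stood at 103, 95.1, 116 and 101 CPM with LPS and at 90.0, 107, 92.5 and 115 CPM with LPS + Tan, so that the lungs differed by at most 1.29-fold. LPS + Tan replicates 1 and 3 were the lowest of the 8 samples, as they were in Tnfrsf1a. The log2 fold change was -0.04 (SE 0.10, 95% interval -0.27 to 0.19, adjusted p = 0.987, edgeR). As a ratio the 95% interval ran from 0.832-fold to 1.14-fold. The log2 fold change turned in sign to 0.00124 with total counts only. Its sign also turned when LPS replicate 3 (0.019) or LPS + Tan replicate 1 (0.011) was left out. Tnfsf14, a further ligand of Ltbr, had 2.68 ± 0.597 CPM with LPS and 2.85 ± 0.622 CPM with LPS + Tan.

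Fas, the death receptor bound by Fasl, had 127, 121, 101 and 116 CPM in the LPS lungs and 119, 91.9, 110.0 and 158 CPM in the LPS + Tan lungs. Its lowest and highest samples were LPS + Tan replicates 2 and 4, the same lungs that were lowest and highest in Tnfsf10. For Fas the log2 fold change was 0.04 (SE 0.15, 95% interval -0.30 to 0.38, adjusted p = 0.991, edgeR), and its sign turned without LPS replicate 3 (-0.019) and without LPS + Tan replicate 4 (-0.12). Fasl, made by cytotoxic lymphocytes, was at 2.44 ± 0.560 CPM with LPS and 2.39 ± 0.897 CPM with LPS + Tan.

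Cd40, through which activated T cells signal to B cells, dendritic cells and macrophages, was split within the LPS + Tan group. In LPS replicates 1 to 4 it stood at 37.5, 35.8, 47.5 and 37.9 CPM, and in LPS + Tan replicates 1 to 4 at 29.7, 29.4, 26.6 and 48.3 CPM. Replicates 1 to 3 of LPS + Tan were below every LPS lung, and replicate 4 was the highest of all 8. With all samples the means were 39.7 ± 5.28 and 33.5 ± 9.98 CPM, a log2 fold change of -0.24 (SE 0.18, 95% interval -0.65 to 0.16, unadjusted p of 0.212, adjusted p = 0.938, edgeR).

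Without LPS + Tan replicate 4 the log2 fold change of Cd40 was -0.47, with an unadjusted p of 0.00203 and an adjusted p of 0.235 (edgeR). It was -0.15 without LPS replicate 3 or without LPS + Tan replicate 3, with unadjusted p of 0.466 and 0.450 (edgeR). In the fit without LPS + Tan replicate 4, 3 of the 10 members, Tnfsf9, Tnfrsf1b and Cd40, had an unadjusted p below 0.05, and so did 9.34% of all tested genes. The log2 fold changes of Tnfsf9 and Tnfrsf1b were then 0.98 and 0.28. They were 0.14 and 0.07 without LPS + Tan replicate 2, with unadjusted p of 0.696 and 0.625 (edgeR). Cd40lg, the ligand of Cd40, had 1, 1, 2 and 1 reads in the LPS lungs and 10, 5, 14 and 1 in the LPS + Tan lungs, too few for the test. At such counts no fold was taken.

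Tnfrsf12a, the receptor of Tnfsf12 (TWEAK) on injured epithelium and stroma, had 49.6, 45.0, 43.5 and 41.8 CPM with LPS and 34.4, 58.9, 38.5 and 41.1 CPM with LPS + Tan. LPS + Tan replicate 2 was above and the other 3 lungs of that group below all LPS lungs. Over all lungs the log2 fold change was -0.06 (SE 0.15, 95% interval -0.40 to 0.28, adjusted p = 0.987, edgeR). Without LPS + Tan replicate 1 the sign turned, to 0.036. Without LPS + Tan replicate 2 it was -0.24, with an unadjusted p of 0.0303 and an adjusted p of 0.423 (edgeR). Tnfrsf12a was then the only member below 0.05, against 10.2% of all tested genes. Tnfsf12 had 11.3 ± 0.986 CPM with LPS and 13.2 ± 2.08 CPM with LPS + Tan, a log2 fold change of 0.22 (SE 0.13).

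**Figure D2:**
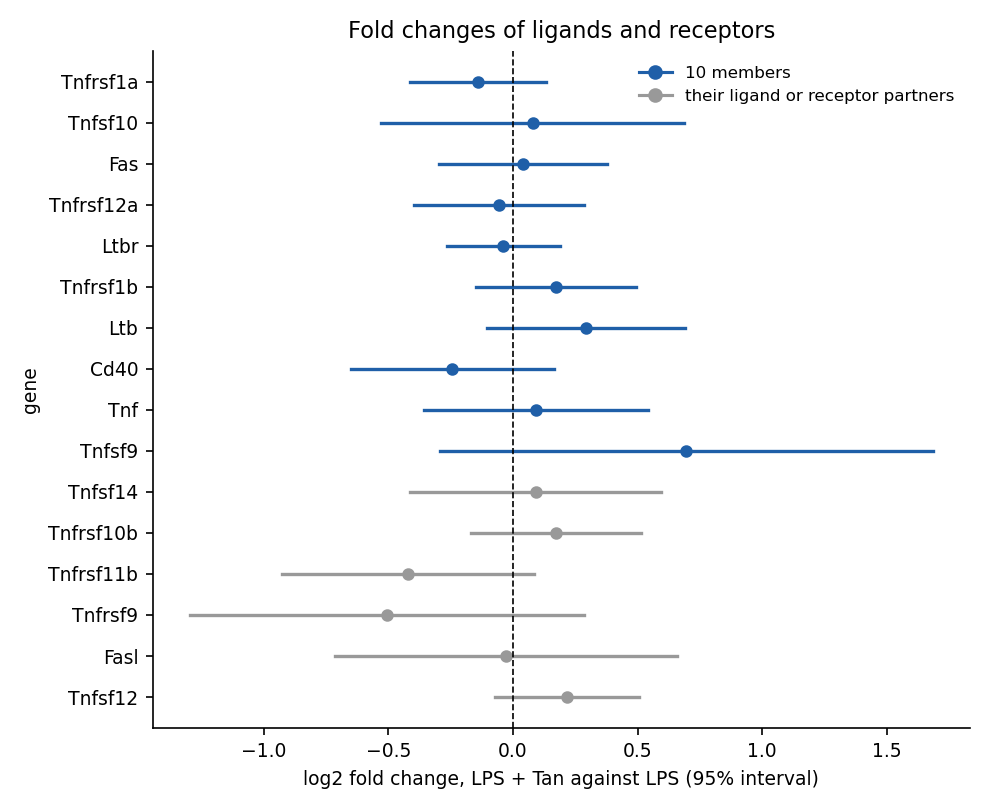
Log2 fold change of LPS + Tan against LPS for the 10 genes (blue) and their tested ligand or receptor partners (grey). Points are edgeR estimates from 4 against 4 lungs and lines are 95% intervals, and every interval includes 0.

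The lungs of the LPS + Tan group were more unlike each other than those of the LPS group. The coefficient of variation (CV) of CPM was larger in LPS + Tan for 8 of the 10 genes, all but Tnf and Ltb, and for 64.6% of all tested genes. The median CV of the 10 was 12.1% with LPS and 23.0% with LPS + Tan, beside 11.7% and 15.3% for all tested genes. The difference in spread was not tested.

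LPS + Tan replicates 1, 2 and 4 each held the highest or lowest value of 5 members. Replicate 1 was highest in Tnf and Ltb and lowest in Tnfrsf1a, Ltbr and Tnfrsf12a. Replicate 2 was highest in Tnfsf9, Tnfrsf1b and Tnfrsf12a and lowest in Tnfsf10 and Fas. Replicate 4 was highest in Tnfsf10, Fas and Cd40 and lowest in Tnfsf9 and Tnfrsf1b. Of all tested genes, 16.4% were highest and 15.4% lowest in replicate 1, 13.8% and 14.1% in replicate 2, and 20.2% and 20.2% in replicate 4.

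**Figure D3:**
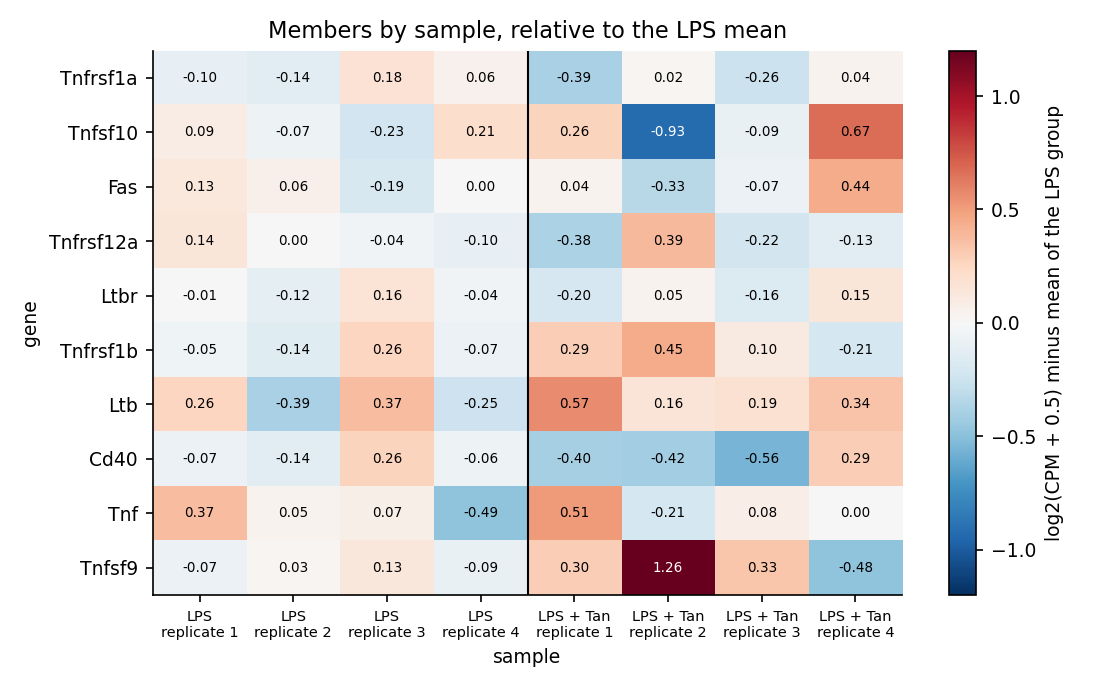
Level of each gene (rows) in each lung (columns), as log2(CPM + 0.5) minus the mean of the LPS group, printed in each cell and coloured red above and blue below 0. The strongest colours are in LPS + Tan replicate 2, with 1.26 for Tnfsf9 and -0.93 for Tnfsf10, and in replicate 4, with 0.67 for Tnfsf10.

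The wider pathway was read from 8 lists with 107 distinct genes, of which 99 were tested. In LPS + Tan 35 were higher and 64 lower, so 64.6% were lower, against 48.2% of all tested genes. An unadjusted p below 0.05 was reached by 11 genes, 1 higher and 10 lower, or 11.1% of those tested, beside 5.12% of all tested genes, and an adjusted p below 0.05 by 0 (edgeR). DESeq2 gave 14 and 0. The count moved with single lungs, and the share of all tested genes moved with it. It was 4 without LPS + Tan replicate 1 (3.02% of all tested genes), 6 without LPS + Tan replicate 3 (3.72%), 5 without LPS replicate 3 (3.69%) and 6 without LPS replicate 2 (4.13%). It was 19 without LPS + Tan replicate 2 (10.2%) and 23 without LPS + Tan replicate 4 (9.34%). Without LPS replicates 1 and 4 the share of all tested genes was 5.64% and 4.91%. It was 4.41% with DESeq2, 5.08% with RLE, 5.1% with upper-quartile and 5.68% with total-count scaling, 4.88% with no filter and 5.15% with a filter at 1 CPM. It was 5.16% with limma-voom, 5.23% with edgeR's likelihood ratio test and 5.26% with the replicate block. With limma on FPKM in log2 form it was 5.86% when 1 was added and 5.8% when 0.1 was added, and 5.15% when 1 was added and no gene was filtered out.

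Genes that TNF is known to induce held 5 of these 10 lower genes, of which Tnfaip3 and Birc3 are also in the list of adaptors and ligases. Of 12 tested, 2 were higher and 10 lower, with a median log2 fold change of -0.36, and 5 had an unadjusted p below 0.05, all of them lower. Of all tested genes 48.2% were lower, 5.12% had an unadjusted p below 0.05 and 2.25% were lower with such a p. The neutrophil chemokine Cxcl1 had 68.4, 78.5, 61.5 and 53.6 CPM with LPS and 51.7, 50.1, 41.7 and 49.8 CPM with LPS + Tan. All 4 LPS + Tan lungs were below all LPS lungs after TMM scaling, but the groups overlapped with total counts only. The log2 fold change of Cxcl1 was -0.44 (SE 0.12, unadjusted p of 0.00474, adjusted p = 0.919, edgeR), and its unadjusted p was at most 0.0160 in all alternative fits and with any sample left out.

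Its relative Cxcl2 differed by -0.49 on the log2 scale (SE 0.21, unadjusted p of 0.0412, adjusted p = 0.924, edgeR). Tnfaip3, the ubiquitin-editing enzyme A20 that restrains NF-κB, differed by -0.36 (SE 0.13, unadjusted p of 0.0200, adjusted p = 0.924, edgeR). Birc3, a ubiquitin ligase of the receptor complex, differed by -0.29, and Sod2, the mitochondrial superoxide dismutase, by -0.38. In Cxcl2, Tnfaip3, Birc3 and Sod2 the groups overlapped. The cytokine Il6 gave a log2 fold change of -0.35 with an unadjusted p of 0.400 (edgeR), which was -0.83 without LPS + Tan replicate 2 (unadjusted p of 0.0309), -0.17 without LPS + Tan replicate 1 and -0.13 without LPS replicate 3. The count of 5 became 1 without LPS replicate 2, without LPS + Tan replicate 1 or without LPS + Tan replicate 3, and 2 without LPS replicate 3. It became 7 without LPS + Tan replicate 2 or LPS + Tan replicate 4, where 10.2% and 9.34% of all tested genes were below 0.05.

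Of the other ligands, 6 of 14 had too few reads for the test, and of the 8 tested 5 were higher and 3 lower. Tnfsf13b, the B cell survival factor BAFF, was the 1 gene with an unadjusted p below 0.05, which 5.12% of all tested genes had. There were 2 such ligands with DESeq2, with no filter, with limma on either FPKM scale and without LPS + Tan replicate 2, and 3 with limma on FPKM of all genes. It had 12.5, 11.9, 14.9 and 7.26 CPM with LPS and 7.04, 6.002, 5.79 and 9.90 CPM with LPS + Tan. LPS replicate 4 and LPS + Tan replicate 4 crossed over, and otherwise the groups were apart. The log2 fold change was -0.70 (SE 0.24, unadjusted p of 0.0147, adjusted p = 0.924, edgeR), and the unadjusted p was at most 0.0471 in all alternative fits and with any sample left out. Eda, a ligand of skin appendage development, was at 2.90 and 3.88 CPM, a log2 fold change of 0.42 (SE 0.25).

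Of the other receptors, 21 of 22 were tested, 11 higher and 10 lower. Tnfrsf13c, the main BAFF receptor of B cells, was the 1 gene with an unadjusted p below 0.05, beside 5.12% of all tested genes. There were 2 such receptors with DESeq2, with limma on either FPKM scale, with the replicate block and without LPS replicate 1, LPS replicate 2 or LPS + Tan replicate 3, and 3 without LPS + Tan replicate 2. It had 3.20, 3.47, 4.23 and 2.98 CPM with LPS and 2.02, 2.19, 2.84 and 2.23 CPM with LPS + Tan, a log2 fold change of -0.58 (SE 0.19, unadjusted p of 0.0114, adjusted p = 0.924, edgeR). Its unadjusted p was at most 0.0394 in the same alternatives. The groups were apart after TMM scaling and overlapped with total counts only. The B cell markers, 5 of 7 lower, had a score difference of -0.14 (exact permutation p = 0.457, n = 4 each), and their part in the values of Tnfrsf13c was not tested. Cd27, a costimulatory receptor of lymphocytes, was at 1.59 and 2.45 CPM (log2 fold change 0.62, SE 0.30, unadjusted p of 0.0679, edgeR). Over the alternatives the log2 fold change of Cd27 ran from 0.35 to 0.77 and its unadjusted p from 0.0352 to 0.201, with p below 0.05 under DESeq2 and without LPS replicate 2 or LPS + Tan replicate 3, among others.

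Signalling genes were mostly lower, and few had a low p, where 48.2% of all tested genes were lower and 5.12% had an unadjusted p below 0.05. Receptor adaptors and ubiquitin ligases were lower in 14 of 18, and 2 of them, Tnfaip3 and Birc3, had an unadjusted p below 0.05. This count was 0 without LPS replicate 2, LPS + Tan replicate 1 or LPS + Tan replicate 3, 1 without LPS replicate 3, and 4 without LPS + Tan replicate 2 (10.2% of all tested genes) or 4 (9.34%). Their partner Tnip1 had a log2 fold change of -0.27 (SE 0.14). Death signalling genes were lower in 10 of 11 with a median of -0.12 on the log2 scale, and 0 had an unadjusted p below 0.05. The count was 1 with DESeq2, RLE scaling, no filter, edgeR's likelihood ratio test, limma-voom or the replicate block, 2 without LPS replicate 1 (5.64% of all tested genes) and 5 without LPS + Tan replicate 4 (9.34%). The necroptosis effector Mlkl came nearest, at 85.0 ± 11.8 and 66.2 ± 15.3 CPM (log2 fold change -0.36, SE 0.16, unadjusted p of 0.0519, edgeR), followed by the caspase inhibitors Cflar and Xiap at -0.17 and -0.16. Kinases towards NF-κB and MAP kinases were lower in 10 of 14, and 0 had an unadjusted p below 0.05 with edgeR or DESeq2, and 1 had without LPS replicate 2 or LPS + Tan replicate 2. Map3k5 was at 0.21, Map3k14, the kinase of the noncanonical NF-κB route, at -0.25, and Map3k7 at -0.13 on the log2 scale.

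Of 9 genes for shedding of ligands and receptors, 5 were higher and 4 lower, and 2 had an unadjusted p below 0.05, beside 5.12% of all tested genes. Frmd8, a cofactor of the TNF-cleaving protease Adam17, differed by 0.21 (SE 0.09, unadjusted p of 0.0367, adjusted p = 0.924, edgeR). Timp3, the inhibitor of that protease, differed by -0.35 (SE 0.15, unadjusted p of 0.0484, adjusted p = 0.924, edgeR). Rhbdf1, which carries Adam17 to the surface, was at 0.14 on the log2 scale. In each of Frmd8 and Timp3 the groups overlapped after TMM scaling, and those of Frmd8 were apart with total counts only. The count of 2 was 0 with the replicate block and without LPS replicates 1, 2 or 4 or LPS + Tan replicate 1, and 5 without LPS + Tan replicate 4, where 9.34% of all tested genes were below 0.05. It was 1 with DESeq2, upper-quartile scaling, no filter or the likelihood ratio test of edgeR, and without LPS replicate 3 or LPS + Tan replicates 2 or 3.

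Of 10 tested targets of lymphotoxin and CD40, 6 were lower, and Tnfsf13b, Cd80 and Cd86 had an unadjusted p below 0.05, which 5.12% of all tested genes had. Without LPS replicate 3 the count was 1, and over all alternatives the unadjusted p reached 0.0613 for Cd80 and 0.0829 for Cd86. Cd80 and Cd86, the costimulatory molecules of antigen-presenting cells, differed by -0.37 (SE 0.13) and -0.34 (SE 0.13), with adjusted p of 0.924 for each (edgeR).

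**Figure D4:**
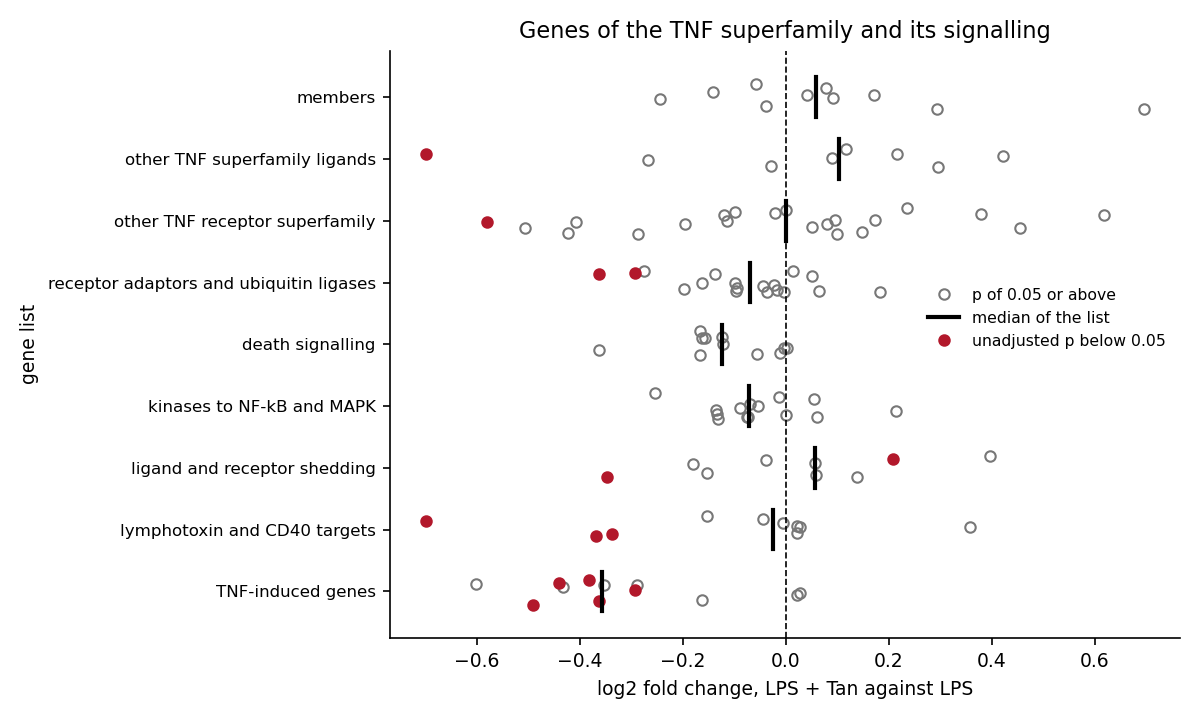
Log2 fold change of LPS + Tan against LPS for each tested gene of the 10 members and of 8 pathway lists. Circles are genes, red with an unadjusted edgeR p below 0.05, and bars are list medians. Red points lie mostly left of 0, and the median is lowest for TNF-induced genes, at -0.36.

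Whole lung mixes many cell types, and fewer cells of a type and less RNA per cell cannot be told apart. Every marker had reads in some lung, but Xcr1 had 0 to 7 reads per lung and was not tested. Clec9a, Siglech and Cr2 had at most 25 reads in any lung. The markers of alveolar type 2 cells, the surfactant-producing cells that mark lung, summed to 7518 to 11240 CPM with LPS and 7461 to 12185 CPM with LPS + Tan. Of 13 marker lists, 0 differed by an exact permutation test (p from 0.114 to 1 with n = 4 each). The neutrophil markers were 7 of 7 higher, with summed levels of 3652 to 5267 CPM with LPS and 3461 to 5191 CPM with LPS + Tan and a score difference of 0.08 (exact permutation p = 0.657, n = 4 each). Monocyte and interstitial macrophage markers were 8 of 8 higher, at 308 to 484 CPM with LPS and 361 to 502 CPM with LPS + Tan, with a score difference of 0.20 (exact permutation p = 0.257, n = 4 each). Endothelial markers were 4 of 6 higher, at 3105 to 3826 CPM and 3632 to 4008 CPM, with a score difference of 0.18 (exact permutation p = 0.143, n = 4 each). Kdr and Tek, at 1.29-fold and 1.43-fold, had an unadjusted p below 0.05 (edgeR), while Cdh5 and Cldn5 were lower. C1qa of the monocyte and interstitial macrophage list also had such a p. Of all tested genes 5.12% had one, and 48.2% were lower. The part of the cell types in the values of the members was not tested. The fibroblast markers, 5 of 5 lower, and the erythroid markers, 5 of 5 lower, had score differences of -0.16 and -0.48.

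The members known from particular cells were set against these lists over the 8 lungs, in 8 relations. Cd40 and the dendritic cell markers had a Pearson r of 0.758 (exact permutation p = 0.0335, adjusted p = 0.268) and a Spearman rho of 0.738 (exact permutation p = 0.0458, adjusted p = 0.367). With total counts only r was 0.610 (exact permutation p = 0.118). Without LPS + Tan replicates 3 and 4, the samples farthest from the median of the list, r was 0.478 (exact permutation p = 0.368). With fewer lungs and a narrower range of the score, this value cannot show on which samples the relation rests. The dendritic cell markers summed to 60.9 to 74.2 CPM with LPS and 63.7 to 79.5 CPM with LPS + Tan. Most of this sum was Zbtb46 and Ccr7, at means of 38.6 and 28.5 CPM over the 8 lungs. Flt3 was at 1.36 CPM, and Clec9a, Siglech and Xcr1 were near the floor at 0.335, 0.276 and 0.064 CPM. Of the 5 markers tested 3 were higher and 2 lower in LPS + Tan. The part of dendritic cells in the level of Cd40 was not tested.

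For Ltb and the B cell markers r was 0.363 and rho 0.476 (exact permutation p = 0.376 and 0.243). Without LPS replicate 1 and LPS + Tan replicate 4 it was 0.826 (exact permutation p = 0.0458). For the other 6 relations, of Ltb with T cells, Cd40 with B cells, Tnf with neutrophils and alveolar macrophages, and Tnfrsf1b with neutrophils and monocytes, r lay between -0.206 and 0.235 and rho between -0.0952 and 0.452. Without the samples farthest from the list median, here LPS replicate 2 and LPS + Tan replicate 2, r of Tnfrsf1b with neutrophils was 0.755 (exact permutation p = 0.0764). That of Tnf with alveolar macrophages was then 0.351, without LPS replicate 2 and LPS + Tan replicate 4. Their adjusted p lay between 0.773 and 0.785 for r and between 0.713 and 0.935 for rho (exact permutation tests).

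Genes with the most similar pattern were ranked by Pearson r of log2(CPM + 0.5) over the 8 lungs among 13736 genes with a mean CPM of at least 1. This is a description, since with so many genes and 8 samples high values are found for any gene. Nearest to Tnf were Fam136a at 0.959, Ldha at 0.956, Anxa6 at 0.941, Aldoa at 0.939 and Prps2 at 0.939. For Ltb they were Capza1 at 0.979, Bcam at 0.979, Psmc3 at 0.973, Rab1b at 0.959 and Capg at 0.957. For Cd40 they were Tmem30a at 0.982, Tapbp at 0.979, Ube2d3 at 0.968, Rasl11b at 0.966 and Cnn3 at 0.965. None of these 15 genes belongs to the lists above.

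Reads counted on genes numbered 38895654 to 39931970 in each lung, and TMM factors ran from 0.959 to 1.05, so depth differed little between lungs. For all members but Tnfsf9 every sample had at least 370 reads. Pearson correlations of log2 CPM were 0.982 to 0.993 within groups and 0.982 to 0.990 between them.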

How the data were processed

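RNA-seq of lung was analysed in 4 LPS and 4 LPS + Tan samples, grouped by the labels. The authors deposited raw read counts and FPKM values for the same 24584 genes, and 0 columns were left without a sample. The builds GRCm38 and mm10 are named in the submitters' processing notes, while no aligner or counter is named in the sources used here. The study's methods give TRIzol extraction and a VAHTS library kit, but the labels give extraction on columns and another library kit. The sources do not say whether counting used strand. Promoter sequences came from the RefSeq table of GRCm38.p6.

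Counts were fitted on the whole table with edgeR 4.0.16 in R 4.3.3 (filterByExpr, TMM scaling, quasi-likelihood test, no covariate), which left 15706 genes. Benjamini-Hochberg adjustment ran over all of them. Intervals of 95% came from the standard error and the t distribution of the fit. Ratios, scores and correlations were tested by exact two-sided permutation in SciPy 1.17.1. A marker score is the mean of log2(CPM + 0.5) over the list. Depth was 38895654 to 39931970 counts per sample. The p-values measure the spread between samples, which the methods describe as mice. No pair of samples within a group was a repeated library. As a median over genes, the squared difference between counts of a pair was at least 9.01 times that of sampling noise. The scripts were tested on simulated data.

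The members, the lists and the tests were chosen with earlier results of these data known. Named genes are the members, their ligand or receptor partners, the 3 genes with the lowest p of each pathway list, and the 5 most similar genes for Tnf, Ltb and Cd40. Cxcl2, Sod2 and Il6 were named after their values were seen. Alternatives were DESeq2 1.42.0, RLE, upper-quartile and total-count scaling, no filter, 1 CPM in 4 samples, limma-voom (limma 3.58.1), edgeR's likelihood ratio test, the replicate number as a blocking term, fits without 1 sample at a time, and limma on log2(FPKM + 1) of tested and of all genes and on log2(FPKM + 0.1).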

Additional observations from a re-analysis of the deposited data

Results flagged for a closer look

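In 5 of 114 groups of 4 samples a lung stood far from the others, measured by its distance to the next sample divided by the range of the group. Chance flags about 1 in 20 groups, or 5.7 here. Cd40lg was highest in LPS replicate 3 (0.977), where it had 2 reads and the other LPS lungs had 1 each. Map3k5 was lowest in LPS replicate 3 (0.896). Map3k14 (0.991) and Map3k7 (0.859) were lowest in LPS + Tan replicate 4, at 12.3 and 67.4 CPM. The erythroid marker score was lowest in LPS + Tan replicate 1 (0.859). None of the 10 members was among them.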

How the results depend on the processing

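None of the 10 members, and none of the 99 tested pathway genes, had an adjusted p below 0.05 in any of the 12 other fits or with any of the 8 samples left out. No member had an unadjusted p below 0.05 in those 12 fits, where the lowest was 0.0592 for Ltb with the replicate block. Deviations of same-numbered samples from their group means had r of 0.164, -0.050, -0.165 and 0.044. Over all combinations of an LPS and an LPS + Tan sample r ran from -0.263 to 0.292. These values were not tested, so they cannot tell whether the numbers pair samples. With the replicate block 12 pathway genes had an unadjusted p below 0.05, and Tnfsf10 turned to -0.018 on the log2 scale. Tnfsf10 was at -0.022 with limma-voom. With total counts only Ltbr was at 0.00124, Fasl at 0.012 and the alveolar macrophage score at 0.041, and with log2(CPM + 0.1) that score was at 0.000471. Without the samples farthest from the list median, r was 0.826 for Ltb with B cells, 0.121 for Cd40 with B cells, 0.478 for Cd40 with dendritic cells, 0.755 for Tnfrsf1b with neutrophils, 0.351 for Tnf with alveolar macrophages, -0.032 for Tnf with neutrophils and -0.417 for Tnfrsf1b with monocytes. Cd40 with dendritic cells was at 0.610 with total counts only. The cause of these changes was not tested.

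With each sample left out in turn, 0 to 3 members, 4 to 23 pathway genes and 0 to 1 marker lists passed an unadjusted p of 0.05. The list was that of erythroid markers, at -0.77 (exact permutation p = 0.0286) without LPS replicate 2. Log2 fold changes ran from -0.074 to 0.23 for Tnf, -0.18 to 0.30 for Tnfsf10, -0.11 to 0.019 for Ltbr, -0.12 to 0.15 for Fas, -0.24 to 0.036 for Tnfrsf12a, 0.14 to 0.98 for Tnfsf9, 0.17 to 0.43 for Ltb, 0.07 to 0.28 for Tnfrsf1b, -0.20 to -0.07 for Tnfrsf1a, -0.47 to -0.15 for Cd40, -1.05 to -0.30 for Tnfrsf9, -0.067 to 0.19 for Tnfsf14 and -0.20 to 0.20 for Fasl. Over all alternatives they ran from 0.18 to 0.56 for Eda, 0.10 to 0.28 for Tnfsf12, 0.064 to 0.28 for Tnfrsf10b, -0.51 to -0.25 for Mlkl, -0.33 to -0.11 for Map3k14, 0.14 to 0.29 for Map3k5, -0.16 to -0.075 for Map3k7, -0.38 to -0.18 for Tnip1, -0.65 to -0.34 for Cxcl2, -0.47 to -0.24 for Sod2, -0.22 to -0.11 for Xiap and -0.52 to -0.18 for Tnfrsf11b. The group difference in the log2 ratio of Tnf to Tnfrsf1b ran from -0.21 to 0.14 and that of Tnfrsf1b to Tnfrsf1a from 0.18 to 0.49, the latter with an exact permutation p of 0.0286 without LPS + Tan replicate 4. For Tnf to Tnfrsf1a the difference ran from 0.022 to 0.41, and for Ltb to Ltbr from 0.22 to 0.45. Scores ran from -0.031 to 0.19 for neutrophils, -0.12 to 0.13 for alveolar macrophages, -0.015 to 0.19 for T cells, -0.12 to 0.35 for NK cells, -0.14 to 0.022 for alveolar type 2, -0.036 to 0.083 for alveolar type 1 and -0.11 to 0.073 for airway cells. They ran from -0.25 to -0.036 for B cells and from 0.11 to 0.29 for monocytes and interstitial macrophages.

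Lta and Cd40lg had too few reads for the test. With 4 against 4 samples all 10 intervals of the members include 0.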
